A study of Saccharomyces cerevisiae with 8 samples.

Results

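Ribosome footprints from yeast polysomes were compared with footprints from all ribosomes of the lysate, called global footprints, to find which genes standard profiling sees and polysomes do not, and the reverse. The comparison is between 4 of the 8 libraries of the series, 2 from polysomes and 2 global ones. It covers 5336 of 6692 gene identifiers, which passed a low-count filter over all 8 libraries. Saccharomyces cerevisiae, wild type or strain background not named, grew in rich medium (YEPD) at 30 °C to an OD600 of 0.6 and received cycloheximide, an inhibitor of elongation, at 100 ug/ml for 2 min before filtration in every group. For the polysome libraries, polysome fractions of a first sucrose gradient were pooled, treated with RNase I and spun through a further gradient. For the global libraries, undivided lysate was digested and passed a single gradient. Footprints of 26 to 32 nt were taken for both. Monosome footprints and fragmented mRNA, 2 libraries each, complete the series. They entered the low-count filter, the scaling and the estimate of spread, and their levels are given only beside results of the comparison.

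A ribosome protects a short piece of the mRNA it is translating, and counting such pieces shows how ribosomes are spread over the genes of a cell. An mRNA that carries several ribosomes at a time runs as a polysome, and one that carries a lone ribosome runs as a monosome. Short reading frames hold few ribosomes, and mRNAs that initiate often hold many, while ribosomes of mitochondria and those on the endoplasmic reticulum work apart from the free ribosomes of the cytosol. A count here is a share of the reads of its library, so fewer ribosomes of a gene in polysomes and more ribosomes of other genes there cannot be told apart.

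The polysome libraries held 8686385 and 7494965 counts and the global libraries 749057 and 552992, so that the median identifier had 228.5 and 212 counts in polysomes and 29 and 22 counts in global footprints. Levels are given as CPM, read counts rescaled with TMM factors to a shared library size, with replicate 1 before replicate 2, and fold changes are log2 of polysome over global with an edgeR estimate of error. On the log2 CPM scale, Pearson's r across genes, which are not independent replicates, was 0.996 within polysomes, 0.966 within global footprints and 0.960 to 0.969 from polysome to global libraries. Whether replicates are separate cultures is not in the labels. The p-values reflect only how far apart libraries of a group lie, estimated over all 4 groups, a spread that may be technical. Depth, the number of gradients and the order of digestion and fractionation differ between the groups as a whole, so these cannot be told apart from the fraction itself.

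In most genes no large difference was seen between the preparations, and the differences were broad but small. Of 5336 genes, 4762 (89.2%) differed by less than 2-fold, and log2 fold changes ran from -1.25 at the 5th percentile to 0.81 at the 95th. By edgeR's quasi-likelihood F test with Benjamini-Hochberg adjustment, 720 genes (13.5%) were higher in polysome footprints and 534 (10%) were lower. The counts called in the lists and classes below are to be read beside these shares. Changes of at least 2-fold went mainly down, with 71 genes (1.33%) at least 2-fold higher and 236 (4.42%) at least 2-fold lower. The median log2 fold change over all genes was -0.02 with TMM scaling. With plain library totals it was -0.46 and the calls were 181 higher and 2002 lower, so every direction below is relative to the median gene. The call counts moved by over 1.5 times when a library was left out. Those higher were 476 without global replicate 2. Those lower were 287 without global replicate 1, 269 without global replicate 2 and 353 without polysome replicate 2. Those at least 2-fold higher were 121 without global replicate 1, and those at least 2-fold lower were 152 without global replicate 2.

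**Figure D1:**
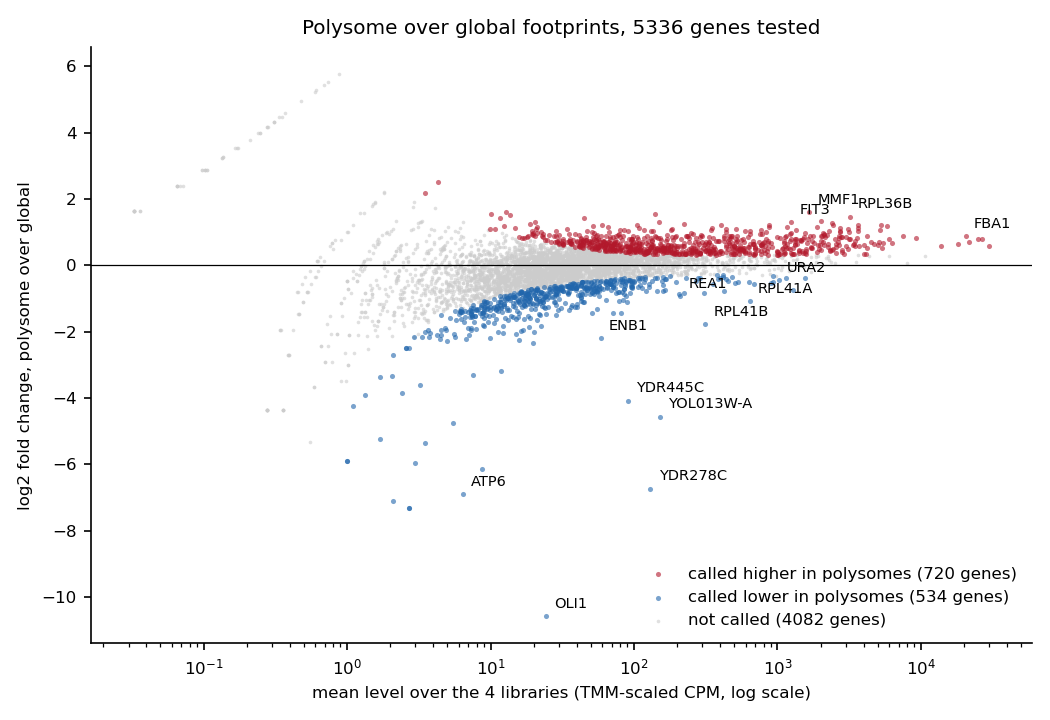
Log2 fold change of polysome over global footprints (vertical axis) against the mean level of a gene over the 4 libraries in TMM-scaled CPM (horizontal log axis), 1 point per gene tested, coloured by the edgeR call. The 720 genes called higher lie mostly above 0 by less than 2-fold, whereas some of the 534 called lower, among them OLI1 at the bottom, lie many-fold below.

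The genes that global profiling saw and polysomes did not were led by the mitochondrial genome. OLI1 encodes subunit c of the mitochondrial ATP synthase on the mitochondrial chromosome (MT, 46723 to 46953 in the R64 assembly). It had 0 and 0 counts in the polysome libraries, against 48 and 31 counts in the far shallower global libraries. The groups do not overlap, and against a floor of 3 counts per library OLI1 was at least 118-fold lower in polysomes (edgeR adjusted p = 1.88e-27). The monosome libraries had 7 and 21 counts of OLI1, and the mRNA libraries 21 and 20.

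The 8 mitochondrially encoded proteins together gave 5 and 5 counts in polysomes, against 74 and 56 in global footprints. That is 5.76e-05% and 6.67e-05% of counts in polysomes and 0.00988% and 0.0101% in global footprints. The share was also low in the monosome libraries, at 0.000191% and 0.000372%. The ratio of polysome to global over the summed counts on the TMM scale was 0.00845 (95% counting interval 0.00396 to 0.016). Intervals of this kind, all exact Clopper-Pearson ones, cover counting error only. Of the 7 members tested, 6 were called lower and none higher (unadjusted p under 0.05 gave 0 higher, and DESeq2 0 higher and 6 lower, not all the same genes). Their median log2 fold change was -5.23 with the members at 0 set at their bound, beside -0.02 over all genes.

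ATP6, the gene of ATP synthase subunit a, had 0 and 1 counts in polysomes and 5 and 14 in global footprints, a ratio of 0.00578 (interval 0.000139 to 0.0364). COX3, a core subunit of cytochrome c oxidase, had 2 and 0 counts in polysomes and 6 and 5 in global footprints, a ratio of 0.02 (interval 0.00215 to 0.0915). Both calls held with each library left out. The other members rest on fewer reads. ATP8, another ATP synthase subunit, had 0 and 1 counts in polysomes and 6 and 0 in global footprints, and its log2 fold change turned to 1.75 without global replicate 1. COX2, a further core oxidase subunit, had 0 and 0 counts in polysomes and 1 and 2 in global footprints, and lost its call without global replicate 2 (adjusted p = 0.157). COB, the gene of cytochrome b, had 1 and 3 counts in polysomes and 3 and 2 in global footprints, and lost its call without global replicate 1 or 2 or without polysome replicate 1 (adjusted p = 0.0517 to 0.142). COX1, the largest oxidase subunit, had 2 and 0 counts in polysomes and 2 and 1 in global footprints and was not called (adjusted p = 0.0729). COB and COX1 overlap genes inside their introns, whose reads the counting could split. The genes lower by DESeq2 included COX1 (DESeq2 adjusted p = 0.0287) and not ATP8 (0.125). With polysome libraries thinned to the depth of the global ones, ATP8, COB and COX2 lost the call (edgeR adjusted p = 0.122 to 0.35). Without global replicate 1 or without global replicate 2, 4 members in place of 6 were called lower.

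A further set of strong depletions lay in identifiers that are not in the reference annotation. Of 72 such identifiers tested, 15 were called lower in polysomes (20.8%) and 0 higher (0 also at unadjusted p under 0.05 and by DESeq2). The filter took in all 8 libraries, so an identifier could enter through its mRNA reads. Q0182, with 24 and 16 counts in mRNA, had 2 and 6 in global and 0 and 0 in polysome libraries. Some calls rest on such few global reads, and in YAR053W (0 and 1 polysome counts, 0 and 3 global counts) the groups overlap. YDR278C had 2.35 and 2.46 CPM in polysome libraries, against 256 and 260 CPM in global libraries (a log2 fold change of -6.73 with an SE of 0.34, edgeR adjusted p = 2.19e-32). YOL013W-A had 13.3 and 11.1 CPM in polysome libraries, against 252 and 332 CPM in global libraries (-4.56, SE 0.18). YDR445C had 8.37 and 11.4 CPM in polysome libraries, against 112 and 229 CPM in global libraries (-4.08, SE 0.24). These 3 identifiers, chosen among genes whose groups do not overlap, were also very high in the mRNA libraries. They took 0.00212% and 0.00231% of counts in polysomes and 0.0745% and 0.104% in global footprints, beside 0.00423% and 0.00487% in monosomes and 3.85% and 6.74% in mRNA. What transcripts these reads come from was not tested, and with the strand setting of the counting not stated, reads of an overlapping or antisense RNA cannot be told apart.

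Detection was compared next, in libraries of unequal depth. Counts in all 4 libraries were found for 5175 identifiers. A count in both global libraries and none in either polysome library was found for 15, each above the floor of 3 counts per polysome library, of which 4 were not in the reference table. Besides OLI1 and COX2 they included AI2, an intron-encoded gene of the mitochondrial chromosome (2 and 6 global counts, at least 13.1-fold lower in polysomes), and VAR1, the ribosomal protein made inside mitochondria (3 and 1 global counts, at least 5.77-fold lower). Q0182 and YHR145C, both absent from the reference, had 2 and 6 and 5 and 2 global counts in that order, and YJL047C-A, a short uncharacterized reading frame, had 1 and 2. Others of the 15, such as RRT12 and MCH2, had 1 count in each global library. The bound takes such few global counts as exact. The reverse, counts in both polysome libraries only, was found for 154 identifiers, among them HAL1, a salt tolerance gene (18 and 18 polysome counts), the seripauperin family genes PAU13 (17 and 14), PAU8 (14 and 16) and PAU23 (8 and 17), SOL4, a 6-phosphogluconolactonase gene (15 and 7), and RMA1 (6 and 15). None exceeded 18 counts or rose above 3 counts per global library (3.81 CPM), so their absence from global footprints was not detectable as a difference at this depth.

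Where the mean level reached 20 CPM, the largest falls after these included genes of membrane proteins and some very short reading frames. ENB1, the transporter of the siderophore enterobactin (chromosome XV, 19491 to 21311), had 20.4 and 20.8 CPM in polysome libraries, against 80.0 and 113 CPM in global libraries (a log2 fold change of -2.20 with an SE of 0.18, edgeR adjusted p = 1.72e-18). IZH2, a membrane protein of zinc homeostasis, had 11.0 and 8.67 CPM in polysome libraries and 32.2 and 38.6 CPM in global libraries (-1.83, SE 0.27). CWH43, which remodels the lipid of GPI anchors, had 11.1 and 8.96 CPM in polysome libraries and 32.2 and 31.5 CPM in global libraries (-1.66, SE 0.27). In each of these genes both polysome libraries lay under both global ones, which the choice of genes required. Over all 5336 genes, both polysome libraries lay under both global ones in 1644 and above both in 1683. TCA17, a subunit of a vesicle tethering complex, fell with a log2 fold change of -1.48, as did the uncharacterized YLR146W-A (-1.48) and FET4, a low-affinity iron transporter (-1.47). YBT1, a vacuolar ABC transporter, had 12.4 and 11.6 CPM in polysome libraries and 43.3 and 20.0 CPM in global libraries (-1.46). Its call rested on global replicate 1, without which it was at -0.74 (adjusted p = 0.272).

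On the other side, the largest rises included genes of mitochondrial, cell wall and ribosomal proteins. MMF1, a mitochondrial protein needed for isoleucine metabolism (chromosome IX, 257843 to 258280), had 2485 and 2532 CPM in polysome libraries, against 879 and 767 CPM in global libraries (a log2 fold change of 1.61 with an SE of 0.12, edgeR adjusted p = 9.23e-20). YDL012C, a tail-anchored membrane protein, had 214 and 203 CPM in polysome libraries and 74.4 and 67.2 CPM in global libraries (1.55, SE 0.15). TIR3, a cell wall mannoprotein, had 69.4 and 60.9 CPM in polysome libraries and 18.9 and 31.5 CPM in global libraries (1.42, SE 0.23). Both polysome libraries exceeded both global ones in each, which the choice of genes again required. RPB11, a subunit of RNA polymerase II, rose by 1.31 on the log2 scale, TRM112, an activator of methyltransferases, by 1.26, and PIN3, an actin regulator that can promote a prion, by 1.23. The uncharacterized YKR045C (1.30) lost its call without global replicate 2 (adjusted p = 0.0569). The other 5 of the 12 largest rises were FIT3, RPL36B, RPL4A, RPL33A and RPS26A, described with their groups.

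**Figure D2:**
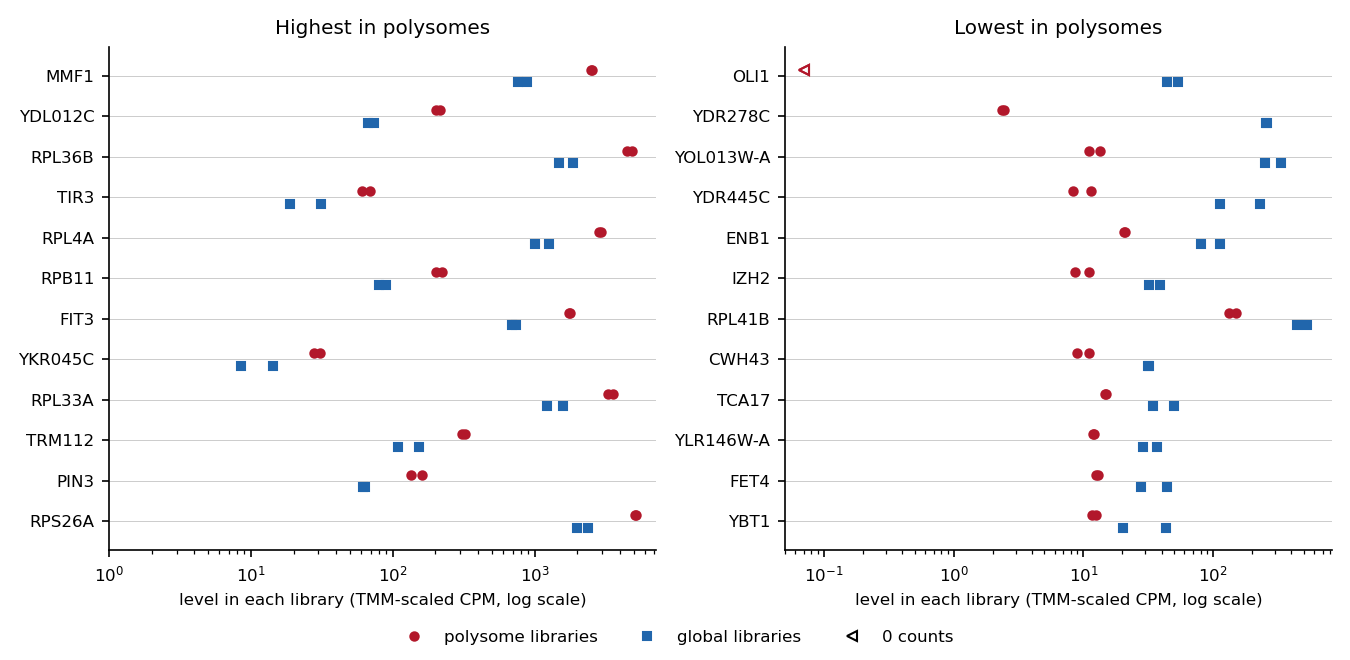
Level in each polysome library (red circles) and each global library (blue squares), in TMM-scaled CPM on log axes, of the 12 genes with the largest rise (left) and the 12 with the largest fall (right) in polysomes among called genes with a mean of at least 20 CPM. In every row the polysome and global points do not overlap, which the choice of genes required. The open triangle marks OLI1 at 0 counts in both polysome libraries.

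Cytosolic ribosomal proteins made the broadest rise. Of 137 genes tested, 107 were higher in polysomes and 4 lower, with a median log2 fold change of 0.65 beside -0.02 over all genes (0.20 beside -0.46 with library totals, where 64 were higher and 20 lower). Their share of all counts was 29.5% and 29.5% in the polysome libraries, against 26.0% and 24.6% in the global libraries, and 34.2% and 32.9% in the monosome libraries, which also lay above the global ones. Large subunit genes had 66 higher and 2 lower of 81 (median 0.68), and small subunit genes had 41 higher and 2 lower of 56 (median 0.51). RPL36B had 4472 and 4885 CPM in polysome libraries, against 1876 and 1488 CPM in global libraries (1.47, SE 0.13, edgeR adjusted p = 2.29e-16). RPL4A (1.34), RPL33A (1.28), RPS26A (1.23) and RPS14A (1.12) followed, and the near-identical copies RPL36A (1.17), RPL4B (1.21), RPL33B (0.79), RPS26B (1.08) and RPS14B (0.90) rose too. Over 59 such pairs of copies, the difference between the copies had a median size of 0.21, and 50 pairs lay within 0.5. How the counting divided reads shared by copies is not stated, so values of single copies are uncertain.

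The exceptions were the shortest ribosomal protein genes and a few copies. RPL41A and RPL41B encode the smallest protein of the ribosome, in 78 nt each on chromosome IV. RPL41B had 132 and 151 CPM in polysome libraries, against 445 and 528 CPM in global libraries (-1.78, SE 0.13, edgeR adjusted p = 2.54e-22). RPL41A had 384 and 440.0 CPM in polysome libraries, against 819 and 924 CPM in global libraries (-1.08, SE 0.13). The monosome libraries held more of both, at 1136 and 948 CPM for RPL41B and 3365 and 2911 CPM for RPL41A. RPS21A fell with -0.56, a call lost without polysome replicate 2 (adjusted p = 0.0879), while its copy RPS21B was at 0.30 and not called (-0.15 with library totals). RPS28B fell with -0.54, while its copy RPS28A was at 0.25 and not called (-0.20 with library totals).

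The other parts of the translation machinery moved less. Among initiation factors 11 of 26 were higher (42.3%) and 2 lower (7.69%), beside 13.5% and 10% over all genes. Their median was 0.27. With library totals 3 were higher and 11 lower, with a median of -0.18. The counts also changed when a library was left out. HCR1, which works with eIF3, had 596 and 626 CPM in polysome libraries and 325 and 363 CPM in global libraries (0.83, SE 0.12), and TIF34, an eIF3 subunit, rose by 0.76. FUN12, the factor eIF5B that joins the subunits, had 540.2 and 512 CPM in polysome libraries and 712 and 778 CPM in global libraries (-0.50, SE 0.11). NIP1, an eIF3 subunit, fell with -0.38, a call lost without global replicate 1 or polysome replicate 2 (adjusted p = 0.131 and 0.276). Among elongation and termination factors 3 of 15 were higher (20.0%) and 2 lower (13.3%), near the 13.5% and 10% over all genes. Their median was 0.06. With library totals 0 were higher and 11 lower, with a median of -0.39. These counts, too, changed when a library was left out. The eEF1B subunits EFB1 (0.62) and CAM1 (0.52) rose, EFB1 overlapping an annotated non-coding RNA. NEW1, an ABC protein of translation, fell with -0.52, a call lost without polysome replicate 2 (adjusted p = 0.0626). SUP35, the release factor eRF3, fell with -0.29, a call lost whichever library was left out (adjusted p = 0.0964 to 0.32). Ribosome biogenesis factors had 9 of 84 higher (10.7%) and 14 lower (16.7%), beside 13.5% and 10% over all genes (median -0.02, the median of all genes; 2 higher and 56 lower with library totals). NOP1, the methyltransferase fibrillarin, rose by 0.73 and TIF6, an anti-association factor of the large subunit, by 0.72. REA1, the AAA ATPase of large subunit maturation, had 151 and 135 CPM in polysome libraries and 249 and 302 CPM in global libraries (-0.93, SE 0.12). UTP6, a factor of small subunit processing, fell with -0.81, a call lost without global replicate 1 (adjusted p = 0.418). Counted anew over the 84 genes, 5 were lower without global replicate 1 and 7 without polysome replicate 2, and 6 were higher without global replicate 1 or 2.

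Among abundant soluble enzymes, chaperones and proteasome subunits more genes went up than down with TMM scaling. Of 21 glycolysis and fermentation enzymes, 11 were higher in polysomes and 0 lower (0 also at unadjusted p under 0.05 and by DESeq2), and the median log2 fold change was 0.43. With library totals 5 were higher and 3 lower (median -0.01). They took 19.1% and 18.3% of counts in polysomes, against 16.6% and 16.1% in global footprints. FBA1, the aldolase, had 28026 and 25122 CPM in polysome libraries and 15526 and 13397 CPM in global libraries (0.88, SE 0.14), and GPM1, the phosphoglycerate mutase, rose by 0.84. Without polysome replicate 1, 7 of the 21 genes were higher. Among cytosolic chaperones 9 of 30 were higher and 0 lower (1 lower at unadjusted p under 0.05, 0 by DESeq2; median 0.24). With library totals 1 was higher and 13 were lower (median -0.21). AHA1, a cochaperone of Hsp90, rose by 0.79 and SSB2, an Hsp70 that binds nascent chains, by 0.62. Proteasome subunits had 11 of 33 higher and 2 lower (median 0.18; 7 higher and 2 lower by DESeq2; 0 higher and 16 lower with library totals, median -0.27), among them the core subunits PUP1 (0.70) and PRE8 (0.59). The lower ones were RPN1 (-0.30) and RPN2 (-0.37), scaffold subunits of the regulatory particle, and both lost the call whichever library was left out (adjusted p = 0.0972 to 0.401 and 0.0719 to 0.149). With a library left out, 0 proteasome genes were lower, and 6 were higher without global replicate 1 or without polysome replicate 1. Histones had 5 of 11 higher and 0 lower (0 at unadjusted p under 0.05 and by DESeq2; median 0.29; 3 higher and 3 lower with library totals, median -0.16; 3 higher without global replicate 1 or 2 or without polysome replicate 1). HHO1, the linker histone, rose by 0.89 and HTB1, a histone H2B gene, by 0.86.

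With TMM scaling, nuclear genes of the respiratory chain and ATP synthase rose or were not called. Of 40 nuclear-encoded subunits of the respiratory chain and ATP synthase, 13 were higher and 0 lower (0 lower at unadjusted p under 0.05), with a median of 0.34. DESeq2 called 8 higher and 0 lower, and with library totals 2 were higher and 5 lower, with a median of -0.11. COX13, a small subunit of the same oxidase as COX2 and COX3, had 151 and 148 CPM in polysome libraries and 75.5 and 60.1 CPM in global libraries (1.12, SE 0.16, edgeR adjusted p = 1.08e-08). SDH4, a membrane anchor of succinate dehydrogenase, rose by 0.89. Mitochondrial ribosomal proteins, also made in the cytosol, had 11 of 70 higher (15.7%) and 5 lower (7.14%), near the 13.5% and 10% over all genes (median 0.02; 0 higher and 24 lower with library totals, median -0.42; without global replicate 1 or 2 7 were higher, and 3 or 1 lower, and 3 were lower without polysome replicate 2). MRPL4 had 81.2 and 85.1 CPM in polysome libraries and 46.7 and 42.9 CPM in global libraries (0.89, SE 0.18). Its call was lost with thinned polysome libraries (0.58, edgeR adjusted p = 0.101) and with library totals (0.44, edgeR adjusted p = 0.0581). MRPL25 rose by 0.94, a call lost with library totals (0.49) and without global replicate 1 (0.68). MRPL50 fell with -0.67, a call lost without global replicate 2 (adjusted p = 0.25), and MRPL24 fell with -0.67, a call lost without global replicate 1 or 2 or without polysome replicate 2 (adjusted p = 0.133 to 0.173).

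**Figure D3:**
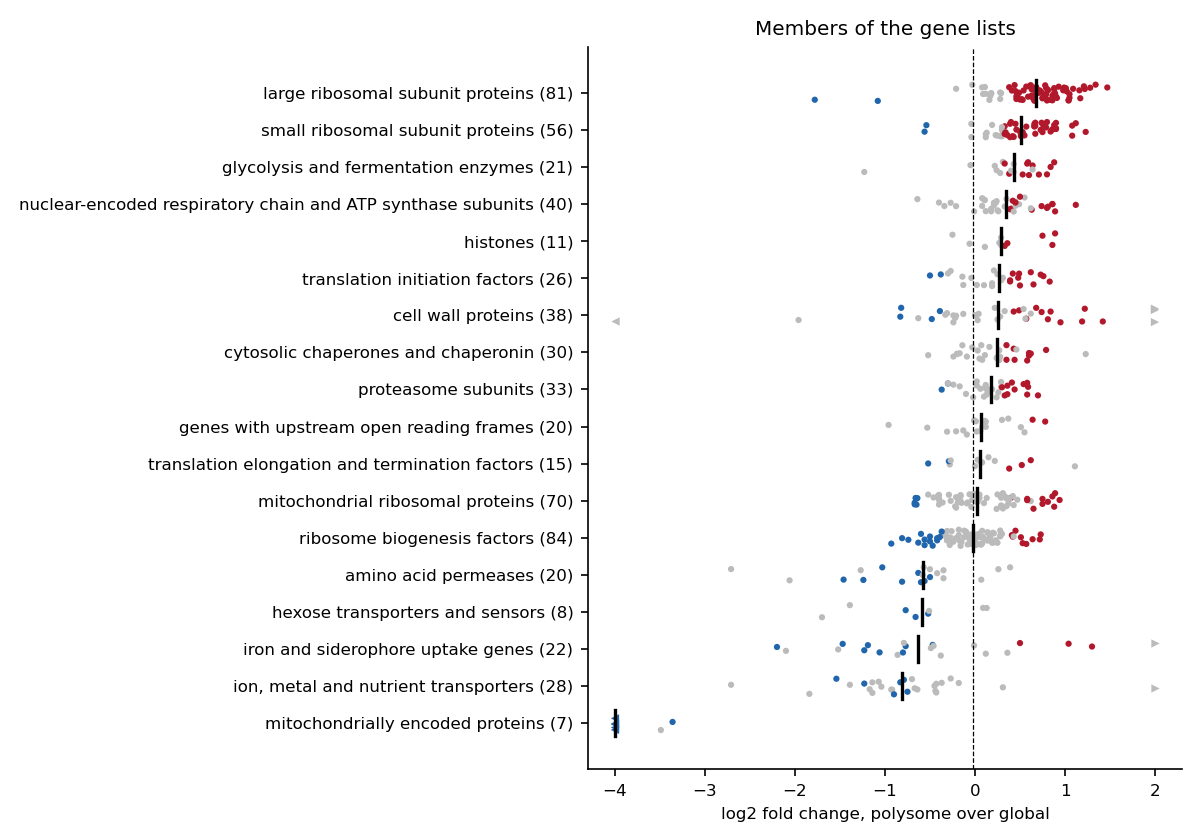
Log2 fold change of polysome over global footprints for the tested members of 18 gene lists (number tested in parentheses), red where called higher, blue where called lower and grey where not called; black bars are list medians and the dashed line is the median of all genes at -0.02. Triangles at the edges are members beyond the axis, and the mitochondrially encoded median of -5.35 with fitted values is drawn at the left edge; with library totals all genes shift to a median of -0.46 and 12 of the 24 medians of lists and length classes change sign.

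Transporters of the plasma membrane went down or were not called. Of 20 amino acid permeases, 8 were lower in polysomes and 0 higher (0 at unadjusted p under 0.05 and by DESeq2), and the median log2 fold change was -0.58 beside -0.02 over all genes. Without global replicate 1, global replicate 2 or polysome replicate 2, 5, 4 and 5 of them were lower. MUP1, the high-affinity methionine permease, had 22.9 and 25.3 CPM in polysome libraries, against 58.9 and 54.4 CPM in global libraries (-1.24, SE 0.20, edgeR adjusted p = 3.76e-07). MUP3, its low-affinity relative, had 2.88 and 3.04 CPM in polysome libraries and 1.11 and 17.2 CPM in global libraries. The groups overlap there, and the fold change of -1.46 became 1.39 without global replicate 2. Among the 8 hexose transporters and sensors tested of 19 listed, 3 were lower and 0 higher (0 at unadjusted p under 0.05 and by DESeq2; median -0.59; 1 lower without global replicate 2). HXT2, a high-affinity glucose transporter, had 42.1 and 41.6 CPM in polysome libraries and 66.6 and 77.3 CPM in global libraries (-0.77, SE 0.17). HXT3, a low-affinity one, was at -0.66 and lost its call without global replicate 2 (adjusted p = 0.116).

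Transporters of ions, metals and other nutrients had 6 of 28 lower and 0 higher (0 at unadjusted p under 0.05 and by DESeq2), with a median of -0.83 after leaving out a gene at 0 in global footprints. PHO87, a phosphate transporter, had 8.37 and 6.07 CPM in polysome libraries and 21.1 and 21.5 CPM in global libraries (-1.54, SE 0.32). SMF1, a manganese transporter, had 7.06 and 6.22 CPM in polysome libraries and 15.6 and 15.7 CPM in global libraries (-1.23), a call lost without global replicate 1 or 2 (adjusted p = 0.0982 and 0.0639). The median level of these lists was low in both groups, at 13.4 CPM in polysome libraries and 18.3 CPM in global libraries for the amino acid permeases and 6.92 and 11.9 CPM in that order for the ion and nutrient transporters. Their median levels in monosomes were 25.2 and 14.2 CPM.

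Iron uptake genes were called lower more often than all genes, and higher about as often. Yeast takes up iron through surface reductases, the oxidase and permease pair Fet3 and Ftr1, siderophore transporters and a set of cell wall mannoproteins that retain siderophores. Of 22 genes tested, 3 were higher in polysomes (13.6%) and 8 lower (36.4%), beside 13.5% and 10% over all genes. The median was -0.77 after leaving out FRE2, which had no global counts. Of the 3 cell wall proteins, 2 rose. FIT3 had 1756 and 1770 CPM in polysome libraries, against 736 and 697 CPM in global libraries (1.30, SE 0.12, edgeR adjusted p = 6.41e-15), and FIT2 had 767 and 842 CPM in polysome libraries, against 415 and 362 CPM in global libraries (1.04, SE 0.12, edgeR adjusted p = 2.23e-11). The third of this family, FIT1, had 39.5 and 39.6 CPM in polysome libraries and 33.3 and 40.1 CPM in global libraries, and was not called (adjusted p = 0.717).

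The transporters fell or were not called. Besides ENB1 and FET4, the siderophore transporter ARN1 had 14.8 and 13.3 CPM in polysome libraries and 27.8 and 31.5 CPM in global libraries (-1.06, SE 0.26), and ARN2 had 13.6 and 11.6 CPM in polysome libraries and 27.8 and 30.1 CPM in global libraries (-1.19, SE 0.26). SIT1, the remaining siderophore transporter, had 72.5 and 77.5 CPM in polysome libraries and 62.2 and 91.6 CPM in global libraries, where the groups overlap (adjusted p = 0.984). The oxidase FET3 had 88.7 and 90.9 CPM in polysome libraries and 146 and 163 CPM in global libraries (-0.77, SE 0.15). Its permease FTR1 (-0.47) lost its call without global replicate 1 or 2 or without polysome replicate 2 (adjusted p = 0.0625 to 0.297). The vacuolar oxidase FET5 (-1.23) lost its call without global replicate 1 or 2 (adjusted p = 0.0944 and 0.0611), and the vacuolar transporter SMF3 (-0.80) lost it without global replicate 1 (adjusted p = 0.169). The reductases FRE1 to FRE6, the permease FTH1, the copper pump CCC2 and the heme oxygenase HMX1 were not called. TIS11, an RNA-binding protein that turns over mRNAs under iron shortage, rose by 0.50, a call lost without global replicate 1 or 2 (adjusted p = 0.0588 and 0.126). Without global replicate 1, 5 of the 22 were lower and 2 higher.

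**Figure D4:**
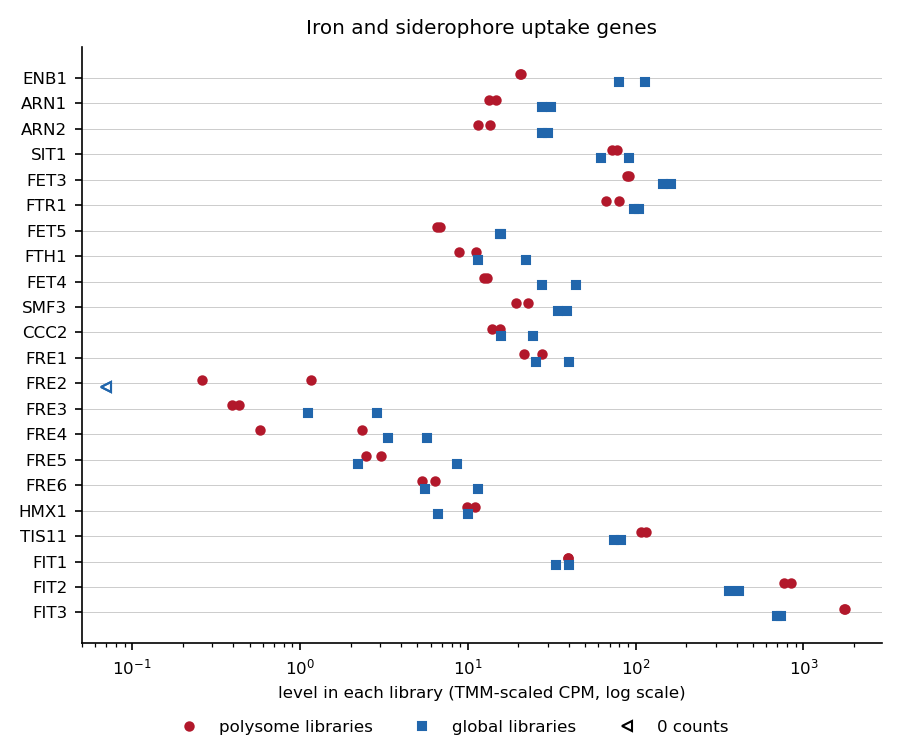
Level in each polysome library (red circles) and each global library (blue squares) of the 22 iron and siderophore uptake genes tested, in TMM-scaled CPM on a log axis, with an open triangle for FRE2 at 0 counts in both global libraries. The mannoproteins FIT2 and FIT3 at the bottom have both polysome points to the right of both global points, and the transporters ENB1, ARN1 and ARN2 at the top have them to the left.

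Cell wall proteins as a list had 11 of 38 higher (28.9%) and 4 lower (10.5%), beside 13.5% and 10% over all genes. The median was 0.23 after leaving out genes at 0 in a group. With fitted values and library totals it was -0.14, and 8 were higher and 10 lower. CWP2, a short mannoprotein, had 7719 and 7148 CPM in polysome libraries, against 3418 and 2940.1 CPM in global libraries (1.22, SE 0.13, edgeR adjusted p = 2.64e-12). GAS1, a GPI-anchored enzyme that lengthens glucan chains, had 164 and 156 CPM in polysome libraries, against 292 and 273 CPM in global libraries (-0.82, SE 0.13, edgeR adjusted p = 2.19e-07). Its relative GAS5 fell with -0.83. Without global replicate 2 or without polysome replicate 2, 2 cell wall genes were lower.

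Genes under translational control by their own leaders gave counts near the background. Of 20 genes with upstream open reading frames, 2 were higher and 0 lower, beside 13.5% higher and 10% lower over all genes (2 lower at unadjusted p under 0.05, 0 by DESeq2; median 0.07; 0 higher and 5 lower with library totals, median -0.38; 0 higher without global replicate 2). CPA1, a subunit of the arginine-regulated carbamoyl phosphate synthetase, had 70.6 and 77.5 CPM in polysome libraries and 52.2 and 41.5 CPM in global libraries (0.64, SE 0.18, edgeR adjusted p = 0.00438, and 0.134 without global replicate 2). RPC11, a subunit of RNA polymerase III, was at 0.78 and lost its call without global replicate 2 (adjusted p = 0.43). GCN4, the activator of amino acid synthesis, had 22.6 and 17.8 CPM in polysome libraries and 34.4 and 22.9 CPM in global libraries (edgeR adjusted p = 0.114). HAC1, the activator of the unfolded protein response, had 10.5 and 11.7 CPM in polysome libraries and 12.2 and 15.7 CPM in global libraries (edgeR adjusted p = 0.578). OAZ1, the antizyme made by programmed frameshifting, had 5.89 and 4.48 CPM in polysome libraries and 15.6 and 8.58 CPM in global libraries (-1.25, SE 0.42), a call lost without global replicate 1 or without polysome replicate 2 (adjusted p = 0.536 and 0.0953).

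Across all genes the difference ran with gene length, taken as the annotated span in R64. Genes of over 300 to 600 nt and of over 600 to 1200 nt had medians of 0.16 and 0.15 on the log2 scale (-0.27 and -0.30 with library totals), with 168 of 638 and 367 of 1689 called higher and 50 and 99 called lower. Genes of over 1200 to 2400 nt had a median of -0.07, with 149 of 1935 higher and 199 lower, and genes over 2400 nt a median of -0.23, with 14 of 841 higher and 141 lower. Genes of up to 300 nt had a median of -0.10, with 22 of 161 higher and 30 lower. Leaving out ribosomal proteins, genes of over 300 to 600 nt and of over 600 to 1200 nt had medians of 0.13 and 0.12, beside -0.02 over all genes. The counts called in a length class moved by over 1.5 times without global replicate 2, to 24 lower at 300 to 600 nt, 45 lower at 600 to 1200 nt, 83 higher and 101 lower at 1200 to 2400 nt, and 9 higher and 65 lower over 2400 nt. Without global replicate 1 they were 32 lower, 45 lower, 74 higher and 99 lower, and 4 higher and 78 lower in the same order. Without polysome replicate 2 there were 118 lower at 1200 to 2400 nt and 91 lower over 2400 nt, and without polysome replicate 1 there were 98 higher at 1200 to 2400 nt.

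Levels of mRNA per kilobase ran with the difference as well. Over 5 equal classes of mRNA counts per kilobase, from low to high, the median log2 fold changes were -0.25, -0.09, -0.07, 0.05 and 0.26, and the genes called higher were 15, 42, 79, 158 and 426 of 1053 (1052 in the middle class). Those called lower were 83, 98, 118, 105 and 115, with no such order. With library totals the medians were -0.70, -0.54, -0.51, -0.39 and -0.19, and the highest class had 146 higher and 399 lower. Without global replicate 1 those called higher were 3, 21, 37, 99 and 320, without global replicate 2 they were 10, 22, 48, 88 and 308, and without polysome replicate 1 the lowest class had 9. The median gene lengths of these classes were 1455, 1428, 1284, 1158 and 1071 nt. Their median levels in global libraries were 13.1, 24.0, 32.9, 48.4 and 202 CPM, and a change is easier to call with more reads. The parts of length and of abundance in each other's pattern, and of read depth in the calls, were not tested.

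**Figure D5:**
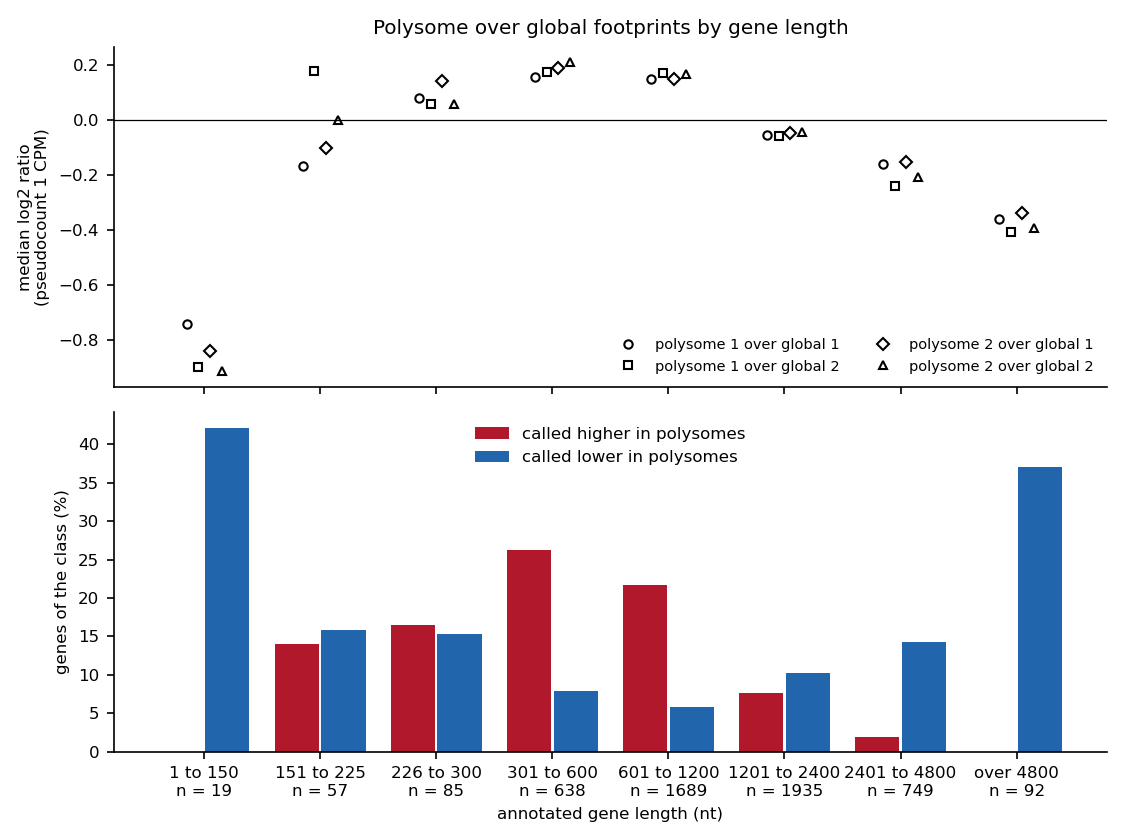
Median log2 ratio of each polysome library over each global library, with a pseudocount of 1 CPM (upper plot, 4 pairs that share libraries), and the percentage of genes called higher or lower in polysomes (lower plot), by classes of annotated gene length in nt. The pair medians lie between 0.15 and 0.21 at 300 to 1200 nt, are under 0 from 1200 nt upward, and are lowest at 1 to 150 nt; with library totals the class medians of edgeR at 300 to 1200 nt are below 0.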

How the data were processed

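The deposited table holds raw whole-number counts per gene for each of the 8 libraries, made with TopHat, Bowtie and HTSeq on sacCer3, per the submitters' processing notes. Versions, strand setting and the handling of reads with several matches are not given in the sources used here. The log2 fold changes and the adjusted p-values that the authors deposited, from DESeq2 per the file headers, name no comparison and were not used here. Of 6692 identifiers, 6008 matched the RefSeq R64 table of genes and 684 did not; 72 of those were tested. Gene lengths include introns.

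Genes were tested with edgeR 4.0.16 (R 4.3.3), quasi-likelihood F test, in a model of the 4 groups fitted to all 8 libraries, with TMM factors, filterByExpr (minimum count 10, minimum total 15), Benjamini-Hochberg adjustment over all genes and a threshold of 0.05. TMM factors were 0.881 and 0.923 in polysome and 1.20 and 1.26 in global libraries. The SE is the absolute log2 fold change over the square root of F, which restates the test. The 2 libraries of a group were further apart than sampling alone gives (chi-square over its degrees of freedom 4.39 for polysome and 1.49 for global), so none was treated as a copy. Counts were also simulated with a fixed spread (dispersion 0.02) and 200 changed genes. Recovered were 1.49% of log2 changes of size 0.5, 59.7% of size 1 and 98.5% of size 2. In the data 720 genes were called higher and 534 lower, and the spread was estimated. The simulated rates therefore do not give the power of the test on the data. A gene not called may still differ. Tables and figures used Python 3.11.15, numpy 2.4.6, pandas 2.3.3 and matplotlib 3.10.9.

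The members and lists were chosen with earlier results of these data known. Lists are described by counts and medians and carry no test. Named are the 12 largest changes each way among called genes with a mean of at least 20 CPM and no overlap of the groups, up to 2 called members each way per list, all iron uptake and mitochondrially encoded genes, GCN4, HAC1, CPA1, OAZ1 and the RPL41 copies, the 6 highest genes each way seen in 1 group only, and copies of named ribosomal proteins. Genes of the lists added after the values were seen are named in part. A gene at 0 in a group is given a bound against 3 counts per library. Alternatives were DESeq2 1.42.0, other scalings, filters and sets of libraries, thinned polysome libraries, a replicate block and leaving out each library, where the lone library of a group is taken to vary like the other groups. No protein or gene sequence was used, so classes by hydrophobic segments are not reported.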

Additional observations from a re-analysis of the deposited data

How the results depend on the processing

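Against 720 genes higher, 534 lower, 71 at least 2-fold higher and 236 at least 2-fold lower in polysomes, library totals gave 181, 2002, 5 and 782, with all genes shifted to a median of -0.46. Thinning the polysome libraries to the depth of the global ones gave 470 higher and 260 lower, and the stricter low-count filter gave 38 and 150 genes at least 2-fold higher and lower. Leaving out a library gave 476 to 773 higher, 269 to 431 lower, 66 to 121 at least 2-fold higher and 152 to 219 at least 2-fold lower. The other settings, namely DESeq2, RLE factors, TMM factors without ribosomal proteins, fits of 4 or 6 libraries, matched identifiers only and no filter, stayed within 1.5 times. Same-numbered libraries of different groups deviated together weakly or not at all (correlations -0.00564 to 0.0639). Counting noise lowers such correlations, so whether the numbers pair the libraries cannot be told. A replicate block gave 786 higher and 554 lower. For the genes in the text, 1966 comparisons with an alternative were made: 1822 kept direction and side of the threshold, 92 lost the call, 31 gained it and 21 changed sign. Among called genes only ATP8 and MUP3 changed sign, ATP8 without global replicate 1 (-6.66 to 1.75 with a library left out) and MUP3 without global replicate 2 (-2.53 to 1.39). Genes not called that changed sign with a library left out were MFA2 (-0.08 to 0.01), CHC1 (-0.21 to 0.02), FIT1 (-0.02 to 0.25), FRE5 (-1.63 to 0.30), FRE6 (-0.95 to 0.09) and SIT1 (-0.29 to 0.27). With library totals RPS21B (-0.15), RPS28A (-0.20), MFA1 (-0.21), FIT1 (-0.32) and HMX1 (-0.09) did, and with thinned polysome libraries FRE6 (0.30) and HMX1 (-0.12). The 21 also count FRE2, which was at 0.00 with thinned polysome libraries and so did not change sign. SIT1 changed sign with TMM factors without ribosomal proteins (0.01), no filter (0.01) and 6 libraries (0.05). The cause of these was not tested, except that ATP8 has no count in the global library that remains. Reads of the global libraries, at a median of 29 and 22 counts per identifier, limit the precision. Classes by hydrophobic segments were not run.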

Other observations

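Groups added after their values were seen, and therefore given with no test of the group, carried more of the falls among membrane and secretory genes. The protein O-mannosyltransferases, which put the first sugar on secreted proteins, had 3 of 7 genes lower in polysomes and 0 higher (0 at unadjusted p under 0.05 and by DESeq2), and all 7 had a log2 fold change below 0 (median -0.73 beside -0.02 over all genes). PMT1 had 33.5 and 29.8 CPM in polysome libraries, against 62.2 and 97.3 CPM in global libraries (-1.30, SE 0.18), PMT4 had 24.3 and 20.2 CPM in polysome libraries, against 45.5 and 57.2 CPM in global libraries (-1.18, SE 0.21), and PMT5 had 4.58 and 4.34 CPM in polysome libraries, against 17.8 and 18.6 CPM in global libraries (-2.02, SE 0.37). Of 21 membrane ABC transporters 7 were lower (33.3%) and 0 higher (0 at unadjusted p under 0.05 and by DESeq2), with a median of -0.60. Fewer were lower without global replicate 1. Over all genes 10% were lower and 13.5% higher, and among genes over 2400 nt 16.8% were lower and 1.66% higher. The median length was 4236 nt in these transporters and 2280 nt in the O-mannosyltransferases. The part of gene length in these falls was not tested. SNQ2, a multidrug exporter, had 55.8 and 53.8 CPM in polysome libraries, against 119 and 104 CPM in global libraries (-1.03, SE 0.15), and STE6, the exporter of a-factor, had 14.9 and 13.0 CPM in polysome libraries, against 34.4 and 31.5 CPM in global libraries (-1.24, SE 0.25). PDR11, which takes part in sterol uptake, fell with -1.89, a call lost without global replicate 2 (adjusted p = 0.102). The abundant multidrug exporter PDR5 had 1167 and 1193 CPM in polysome libraries and 1207 and 1406 CPM in global libraries and was not called (edgeR adjusted p = 0.443).

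Within some complexes subunits moved both ways, in lists of 9 to 11 genes whose counts are to be read beside 10% lower and 13.5% higher over all genes. In the oligosaccharyltransferase, which adds N-linked sugars, WBP1 had 14.8 and 12.3 CPM in polysome libraries, against 31.1 and 32.9 CPM in global libraries (-1.23, SE 0.26), and the very short OST4 of 111 nt had 47.0 and 54.8 CPM in polysome libraries, against 98.9 and 115 CPM in global libraries (-1.06, SE 0.16), while OST5 had 173 and 149 CPM in polysome libraries, against 110.0 and 58.7 CPM in global libraries (0.89, SE 0.16). OST6 fell with -1.28, a call lost without global replicate 1 (adjusted p = 0.101). Of its 9 subunits, 3 were lower (2 without global replicate 1) and 1 higher. In the translocon and the receptor of the signal recognition particle, 3 of 11 genes were lower and 1 higher (2 lower without global replicate 2, where SEC63 lost its call). SSH1, a channel subunit, had 43.9 and 36.9 CPM in polysome libraries, against 63.3 and 77.3 CPM in global libraries (-0.78, SE 0.18), and SBH1, a small channel subunit, had 279 and 275 CPM in polysome libraries, against 181 and 163 CPM in global libraries (0.68, SE 0.13). Of 11 TRAPP tethering subunits, 3 were lower and 0 higher (0 at unadjusted p under 0.05 and by DESeq2; 2 lower without global replicate 1 or 2 or without polysome replicate 2), with TCA17 joined by BET5 at 25.1 and 24.3 CPM in polysome libraries, against 55.5 and 54.4 CPM in global libraries (-1.15, SE 0.20).

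Both ends of the length range, in classes also cut after the values were seen, held falls and no rises. Of 19 genes of up to 150 nt, 8 were lower in polysomes and 0 higher (0 at unadjusted p under 0.05 and by DESeq2). The 8 included RPL41A, RPL41B and OST4, already described above. They also included YJL047C-A and the mitochondrially encoded ATP8, both resting on few reads. The median level of the class was 1.17 CPM in polysome libraries and 3.33 CPM in global libraries, beside 9.83 CPM in monosomes. PMP2, a proteolipid regulator of the plasma membrane proton pump, had 61.7 and 59.4 CPM in polysome libraries, against 114 and 116 CPM in global libraries (-0.93, SE 0.15). Of similar length, the a-factor genes MFA1 (111 nt, 258 and 257 CPM in polysome libraries, 238 and 197 CPM in global libraries) and MFA2 (117 nt, 676 and 674 CPM in polysome libraries, 699 and 715 CPM in global libraries) were not called (edgeR adjusted p = 0.202 and 0.74).

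Of 92 genes over 4800 nt, 34 were lower in polysomes and 0 higher (0 at unadjusted p under 0.05 and by DESeq2; 19, 16 and 23 lower without global replicate 1, global replicate 2 or polysome replicate 2), with a median of -0.41 after leaving out genes with no bound. The lower ones included the mitochondrial genes AI2 and COB, whose annotated spans are 5013 and 7108 nt. The median level of the class was 33.6 CPM in polysome libraries and 45.5 CPM in global libraries. It was 29.9 CPM in monosomes, a difference from monosomes that was not tested here. GCN1, the partner of the Gcn2 kinase (8019 nt), had 328 and 300 CPM in polysome libraries, against 537 and 532 CPM in global libraries (-0.77, SE 0.12, edgeR adjusted p = 4.39e-07), and 256 and 247 CPM in monosomes. REA1, the longest of those named at 14733 nt, had 124 and 118 CPM in monosomes beside the values above. Of the 6 most abundant genes over 4800 nt, URA2 (-0.44), FAS2 (-0.51) and RRP5 (-0.42) were called lower, each losing the call without polysome replicate 2 (adjusted p = 0.257, 0.134 and 0.165) and without 1 global library (replicate 2 for URA2 and FAS2, replicate 1 for RRP5; adjusted p = 0.0564 to 0.173), and ACC1, FAS1 and CHC1 were not called (edgeR adjusted p = 0.06, 0.289 and 0.531).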
